A study of Mus musculus with 12 samples.

Results

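Long noncoding RNAs of neurons and of the cell nucleus were measured here across morphine exposure and knockdown of the serotonin receptor 5-HT6R in mouse prefrontal cortex. The 9 genes are Malat1, Neat1, Meg3, Rian, Mirg, Miat, Snhg11, Snhg14 and Gas5, chosen by symbol from the 55401 gene rows of the deposited count table, and all 9 passed the low-count filter that left 21958 genes for testing. The samples were medial prefrontal cortex (mPFC) of male mice, taken when conditioned place preference, a liking for the chamber in which a drug had been given, had been under extinction for 2 weeks. A first group carried an adeno-associated virus (AAV) for knockdown of 5-HT6R and received morphine (AAV-5-HT6Rkd-Morphine), a second carried a scramble virus and received morphine (AAV-Scramble-Morphine), and the third carried the scramble virus and received saline (AAV-Scramble-Saline). Each group had 4 libraries, every mouse carried a virus, and there was no knockdown group given saline. The labels name neither the promoter of the virus nor the animal behind each library, so the spread behind the p-values below may be technical. The stated purpose of the study was to find targets of 5-HT6R downregulation that bear on extinction of morphine-induced preference.

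These RNAs do not encode their main product as protein. Malat1 gathers in nuclear speckles, the stores of splicing factors beside active genes, and Neat1 is the scaffold around which paraspeckles form. Meg3, Rian and Mirg are transcribed in the same direction from the maternal copy of the imprinted Dlk1-Dio3 region and carry microRNAs and small nucleolar RNAs (snoRNAs) in their introns and exons. Miat, also called Gomafu, is held in the nuclei of neurons and binds splicing regulators. Snhg11, Snhg14 and Gas5 are snoRNA host genes, whose introns are processed into snoRNAs; Snhg14 is read from the paternal chromosome across Ube3a in the antisense direction, and in neurons this silences the paternal Ube3a copy.

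The libraries held 41483220 to 65739423 counts each. Htr6, the gene of 5-HT6R, was at 3.82 to 5.46 CPM (read counts scaled to the size of the library) in knockdown morphine libraries, 4.82 to 5.58 in scramble morphine and 4.35 to 7.98 in scramble saline, so the groups overlapped and the targeted gene does not check the labels. All 14 neuron markers were detected, with a summed level of 9893 to 12181 CPM in knockdown morphine libraries, 10739 to 11747 in scramble morphine and 10896 to 11317 in scramble saline. The ribosomal RNA locus CT010467.1 held 4.57 to 9.38% of the counts in knockdown morphine libraries, 2.38 to 3.04% in scramble morphine and 3.58 to 5.63% in scramble saline. A fit with that share as a covariate and the correlation of each member with the share are given below. In whole tissue, fewer cells of a type and less RNA per cell cannot be told apart.

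Together the 9 RNAs took 0.852 to 1.10% of all counts in a library. Meg3 (ENSMUSG00000021268, chr12:109541001-109571726, plus strand; coordinates are GRCm38, the same as mm10) averaged 5187 CPM and ranked 3 among all tested genes. Snhg11 (ENSMUSG00000044349, chr2:158375638-158386145, plus strand) averaged 2074 CPM and ranked 17. Mirg (ENSMUSG00000097391, chr12:109729764-109749460, plus strand), the least abundant, averaged 24.2 CPM, with 956 to 1721 counts in a library. The other 6 lay between them. Miat (ENSMUSG00000097767, chr5:112213228-112229395, minus strand) averaged 853 CPM, Malat1 (ENSMUSG00000092341, chr19:5795690-5802672, minus strand) 828 CPM and Rian (ENSMUSG00000097451, chr12:109603940-109661716, plus strand) 546 CPM. Neat1 (ENSMUSG00000092274, chr19:5824708-5845478, minus strand) averaged 253 CPM, Snhg14 (ENSMUSG00000100826, chr7:59307924-59975759, minus strand) 74.9 CPM and Gas5 (ENSMUSG00000053332, chr1:161034422-161038539, plus strand) 61.5 CPM. GENCODE M21 types all of these as noncoding except Snhg11, which it lists as protein coding.

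Malat1 and the long Neat1 isoform are known to lack an added poly(A) tail, and how well the bead selection kept them, which bears on their place in an order of levels, was not tested. Per kilobase of annotated exon, the order of the levels changed, because the genes' exons add up to lengths from 3760 bases for Gas5 to 26093 bases for Snhg14. These lengths add the exons of all annotated transcripts of a gene. The longest single transcript had 6861 bases for Snhg14, 8089 for Rian and 3822 for Mirg. The order can change with the length used, and an order by single transcripts was not computed. Meg3 led with a mean of 287 CPM per kb, followed by Snhg11 with 243, Malat1 with 119, Miat with 91.8, Rian with 29.9, Gas5 with 16.4, Neat1 with 12.2, Mirg with 3.32 and Snhg14 with 2.87. Over the 12 libraries the ranges of Meg3 and Snhg11 overlapped, as did those of Malat1 and Miat, of Gas5 and Neat1, and of Mirg and Snhg14. The ranges of the other neighbours in that order, Snhg11 and Malat1, Miat and Rian, Rian and Gas5, and Neat1 and Mirg, did not overlap.

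**Figure D1:**
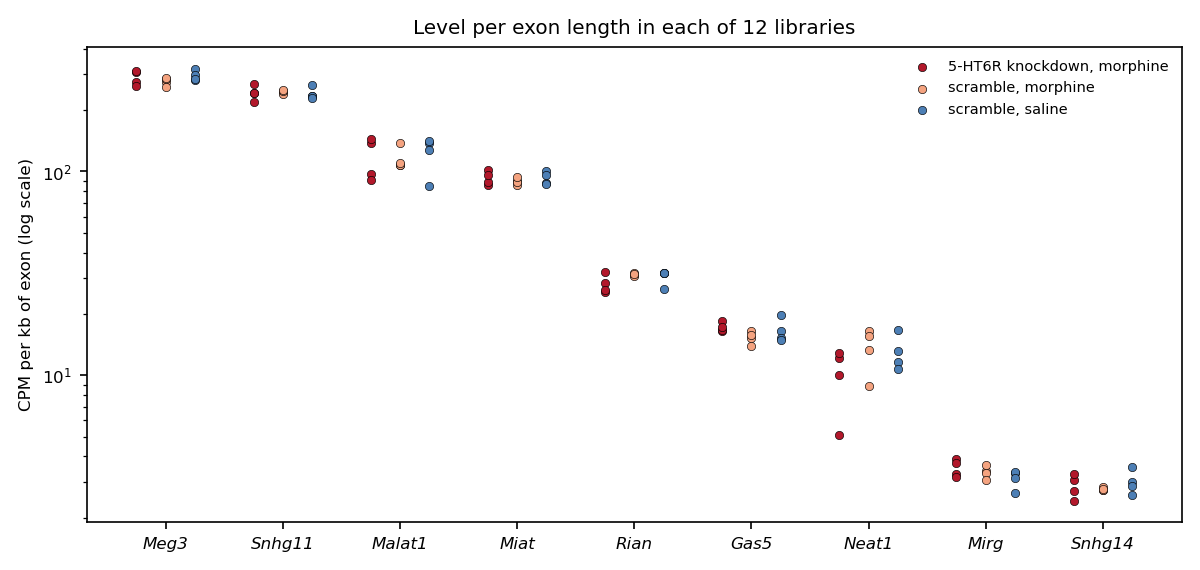
Level of each RNA per kilobase of annotated exon (CPM per kb, log axis) in each of the 12 libraries, with knockdown morphine, scramble morphine and scramble saline from left to right within a gene. Meg3 is at the top with a mean of 287 CPM per kb and Snhg14 at the bottom with 2.87.

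The 3′ ends of Malat1 and Neat1 matter for these levels, because the libraries were made from RNA caught on oligo(dT) beads, which bind poly(A). Mature Malat1 and the long Neat1 isoform are known to end not in an added poly(A) tail but in a genome-encoded A-rich tract that folds into a triple helix, whereas the short Neat1 isoform is polyadenylated. The 60 bases that end in the A-rich tract (in capitals) in the longest Malat1 transcript (chr19:5795982-5796041, minus strand) and in the long Neat1 transcript (chr19:5824708-5824767, minus strand) are set beside the last 60 bases of a short Neat1 transcript (chr19:5842307-5842366, minus strand), where the capitals mark a polyadenylation signal. All are written in the direction of transcription from the GENCODE M21 transcripts.
Malat1: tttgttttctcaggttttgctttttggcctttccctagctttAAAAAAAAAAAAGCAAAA
Neat1, long: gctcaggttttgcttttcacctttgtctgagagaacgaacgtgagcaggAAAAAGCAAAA
Neat1, short: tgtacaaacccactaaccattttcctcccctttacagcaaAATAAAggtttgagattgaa

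The letters AAAAAGCAAAA, taken from the end of the long Neat1 transcript, occurred in the sense direction in the last 100 bases of 64 of 139316 annotated transcripts (0.0459%). Neat1 is therefore counted by choice, and the tract of the longest Malat1 transcript lies outside that window. The share does not measure how rare a tract common to both is. In the long Neat1 they are the last bases of the annotated transcript, and in Malat1 the tract ends at base 6691 of 6983. The signal AATAAA occurred in the last 60 bases of 27.2% of transcripts. The gene-level counts add the long and short Neat1 isoforms together, and how much of either tail-less RNA the beads recovered was not tested. The places of Malat1 and Neat1 in the order of levels above carry that limit, and so do their group comparisons and their ratio below. All 9 tested genes of a list of abundant structural RNAs had a log2 fold change above 0 in knockdown morphine against scramble morphine. Of these, 0 had an edgeR adjusted p under 0.05, where 0% of all tested genes did. All 9 had an unadjusted p under 0.05 in edgeR's test, against 12% of all tested genes. In scramble morphine against scramble saline all 9 lay below 0, and 5 had an unadjusted p under 0.05, against 3.48%. Again 0 had an adjusted p under 0.05. Rn7sk had the largest change in knockdown morphine against scramble morphine (1.53). It was at 31.5 to 66.6 CPM in knockdown morphine, 12.2 to 19.9 in scramble morphine and 18.9 to 35.5 in scramble saline. Whether bead recovery differed between the groups was not tested.

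No member passed the test in any comparison. In edgeR's quasi-likelihood test with Benjamini-Hochberg adjustment over all tested genes, 0 of 9 had an adjusted p under 0.05 in knockdown morphine against scramble morphine, in scramble morphine against scramble saline, or in knockdown morphine against scramble saline, and 0 of 9 had an unadjusted p under 0.05 in any of them. Of all tested genes, 0%, 0% and 0.0137% were called in these comparisons, and 12%, 3.48% and 9.35% had an unadjusted p under 0.05. DESeq2 and limma voom also called 0 of 9 in each comparison. The shares above are those of edgeR. DESeq2 called more of all tested genes than edgeR in each comparison, and its counts are given in the last paragraph. In knockdown morphine against scramble morphine, 6 members had a log2 fold change above 0 and 3 below, with a median of 0.05 against 0.00 over all tested genes; Malat1, Miat and Snhg14 moved below 0 when libraries were scaled by their totals alone. The comparison of scramble morphine with scramble saline had 4 above and 5 below 0, with a median of -0.05. The comparison of knockdown morphine with scramble saline had 3 above and 6 below, with a median of -0.03, and Snhg11 and Miat crossed 0 there with the scaling. The last comparison shares its libraries with the other two, so it adds no independent samples.

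**Figure D2:**
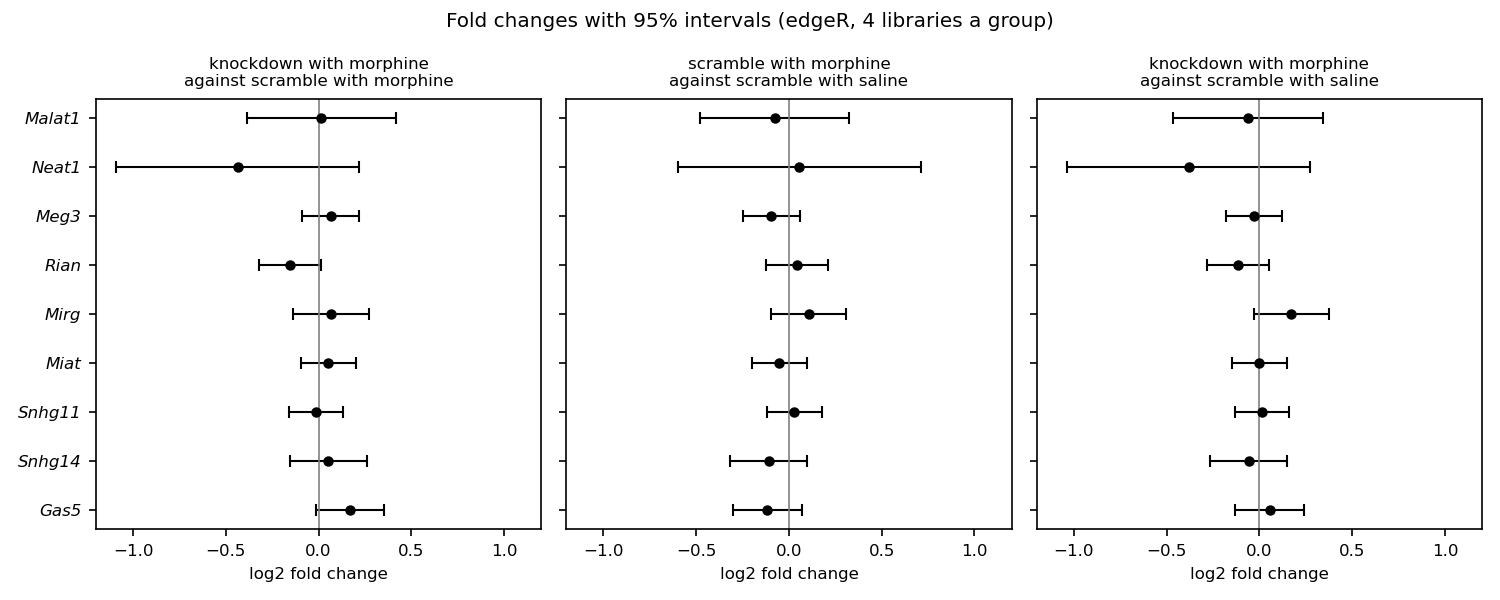
Log2 fold change of each RNA (points) with its 95% interval (bars) from edgeR in the 3 comparisons, 4 libraries a group. Every interval includes 0, and the widest are those of Neat1, from -1.09 to 0.22 in knockdown morphine against scramble morphine.

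The size of change that these data leave possible differed between the members. Standard errors of the log2 fold changes were 0.07 for Snhg11, Miat and Meg3, 0.08 for Rian, 0.09 for Gas5, 0.10 for Mirg and Snhg14, 0.18 for Malat1 and 0.29 for Neat1. For Snhg11 in knockdown morphine against scramble morphine, the 95% interval of the fold was 0.894 to 1.10. For Neat1 it was 0.469 to 1.16, so folds across that interval are compatible with the 4 libraries a group.

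Neat1, the paraspeckle scaffold, varied most of the 9 RNAs, with a coefficient of variation (CV, SD over mean) of 27.4% over the 12 libraries and a highest value 3.30 times the lowest. Knockdown morphine libraries 1, 2, 3 and 5 had 207.7, 105, 251 and 267 CPM, scramble morphine libraries 1, 3, 4 and 5 had 343, 324, 184 and 275 CPM, and scramble saline libraries 2, 3, 4 and 5 had 241, 273, 223 and 348 CPM. Knockdown replicate 2 was the lowest of all and the groups overlapped. The means were 208 ± 72.8 CPM in knockdown morphine, 281 ± 71.0 in scramble morphine and 271 ± 55.2 in scramble saline (SD, n = 4 each). The log2 fold change of knockdown morphine over scramble morphine was -0.44 (SE 0.29, edgeR adjusted p = 0.590), and that over scramble saline was -0.38 (SE 0.29, adjusted p = 0.751). Without knockdown replicate 2 these values were -0.22 and -0.16, and without scramble saline replicate 5 the second was -0.24. Scramble morphine over scramble saline gave 0.05 (SE 0.29, adjusted p = 0.999).

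Malat1, the speckle RNA whose gene lies 22035 bases from that of Neat1 on the same strand, had 959.6, 676, 631 and 1010.0 CPM in the knockdown morphine libraries in the order given above, 753, 755, 770.5 and 966 CPM in scramble morphine and 960.1, 887, 591 and 982 CPM in scramble saline. High and low libraries occurred in every group, and the ranges overlapped. Means were 819 ± 193 CPM in knockdown morphine, 811 ± 103 in scramble morphine and 855 ± 181 in scramble saline (SD, n = 4 each). Its log2 fold change was 0.01 for knockdown morphine over scramble morphine (SE 0.18), a sign that turned with the scaling, and -0.08 for scramble morphine over scramble saline (SE 0.18).

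The count of Neat1 as a percent of that of Malat1 in the same library, a measure that needs no scaling between libraries, was 21.6, 15.6, 39.8 and 26.5% in knockdown morphine, 45.5, 42.9, 23.8 and 28.5% in scramble morphine and 25.1, 30.8, 37.7 and 35.4% in scramble saline. The groups overlapped, with 2 high and 2 low libraries in scramble morphine. Knockdown morphine minus scramble morphine was -0.48 on the log2 scale (two-sided exact permutation test, 4 against 4, p = 0.200; adjusted over 12 such tests, 0.549). The other comparisons gave 0.09 for scramble morphine minus scramble saline (exact p = 0.743) and -0.38 for knockdown morphine minus scramble saline (exact p = 0.286).

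**Figure D3:**
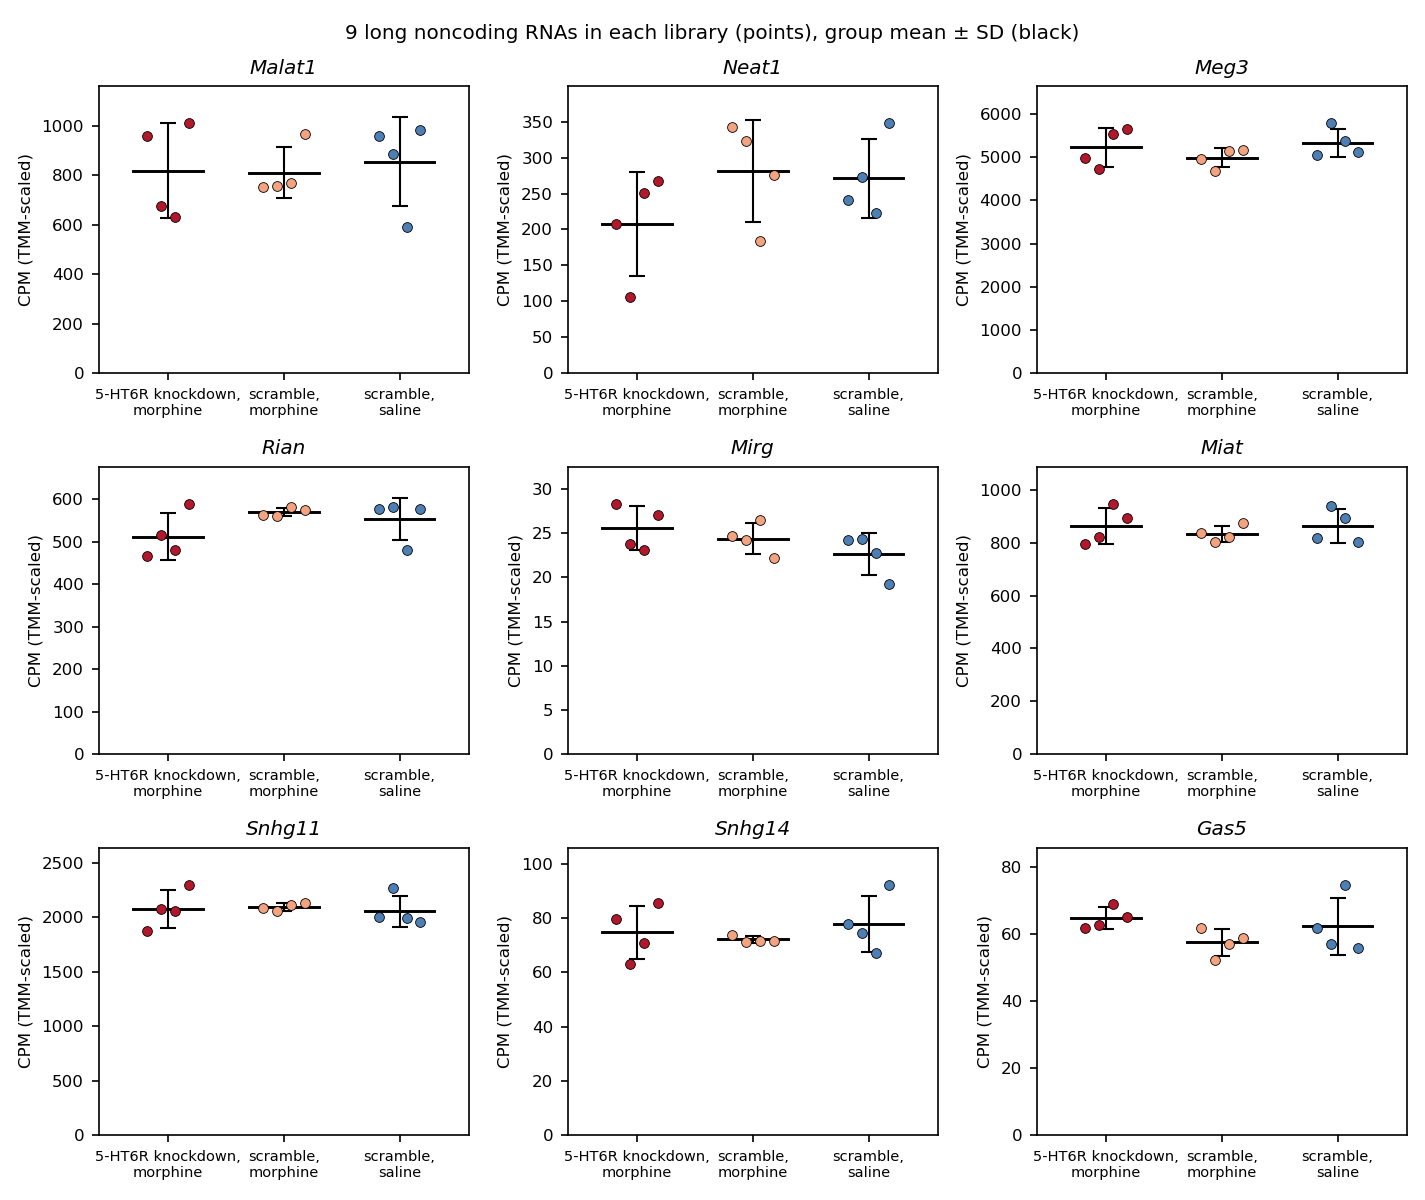
CPM of each RNA in the 12 libraries (points), scaled by the trimmed mean of M-values (TMM), with the group mean and SD in black and groups from left to right as knockdown morphine, scramble morphine and scramble saline. Only Gas5 has all 4 knockdown morphine points above all 4 scramble morphine points, by a margin of 61.94 against 61.93 CPM, and Rian, Snhg11 and Snhg14 are tightly grouped in scramble morphine.

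Meg3, Rian and Mirg lie within 208460 bases on chromosome 12, with gaps of 32213 bases between Meg3 and Rian and 68047 bases between Rian and Mirg, and 54 microRNA hairpins of the RefSeq table fall between the start of Meg3 and the end of Mirg. Hairpins and mature microRNAs inside the genes themselves were counted separately. There were 1 hairpin and 3 mature microRNAs in Meg3, 3 and 6 in Rian, and 14 and 26 in Mirg. Rian also contains 13 annotated snoRNA genes. The 35 mature microRNAs have 34 different seeds, the bases 2 to 8 that pair with a target. The shared seed belongs to miR-453 and miR-496a-5p, both in Mirg. These are shown with 1 microRNA of each host, the seed in capitals, as RefSeq gives them for GRCm38.p6; miR-134 is known as a regulator of dendritic spines in neurons.
miR-770-5p (Meg3): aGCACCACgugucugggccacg
miR-370-3p (Rian): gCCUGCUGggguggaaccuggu
miR-134-5p (Mirg): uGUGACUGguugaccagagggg
miR-453 (Mirg): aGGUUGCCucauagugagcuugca
miR-496a-5p (Mirg): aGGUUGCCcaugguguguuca

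These libraries measure the host transcripts, not the mature microRNAs. Meg3 had 4980.5, 4734, 5539 and 5664 CPM in knockdown morphine, 4972, 4692, 5146 and 5177 CPM in scramble morphine and 5061, 5787, 5373 and 5125 CPM in scramble saline. The groups overlapped, and the scramble morphine libraries lay in the lower part of the range. The log2 fold change was 0.07 for knockdown morphine over scramble morphine (SE 0.07, edgeR adjusted p = 0.761), -0.09 for scramble morphine over scramble saline (SE 0.07) and -0.03 for knockdown morphine over scramble saline (SE 0.07).

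Rian, the host of a run of C/D box snoRNAs, had 466, 515, 480.0 and 588 CPM in knockdown morphine, 564, 562, 582 and 574 CPM in scramble morphine and 577, 582, 481 and 577 CPM in scramble saline. Of the knockdown libraries, 3 lay below every scramble morphine library and replicate 5 lay above all of them. The means were 512 ± 54.6 CPM in knockdown morphine, 570.5 ± 9.36 in scramble morphine and 554 ± 48.9 in scramble saline (SD, n = 4 each). Knockdown morphine over scramble morphine gave a log2 fold change of -0.16 (SE 0.08), with an unadjusted p = 0.0664 and an adjusted p = 0.444 in edgeR's test. Without knockdown replicate 5 it was -0.23 (adjusted p = 0.0910), the smallest adjusted p of any member under any setting. Leaving out that library also raised the number of genes called among all tested, as the last paragraph gives, and Rian was not among them. Scramble morphine over scramble saline gave 0.04 (SE 0.08) and knockdown morphine over scramble saline -0.11 (SE 0.08, adjusted p = 0.704).

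Mirg, the host of the microRNA cluster, had 28.3, 23.8, 23.1 and 27.0 CPM in knockdown morphine, 24.7, 24.2, 26.5 and 22.2 CPM in scramble morphine and 24.2, 24.4, 22.8 and 19.3 CPM in scramble saline. The ranges overlapped, and the lowest library was scramble saline replicate 5. Its log2 fold change was 0.07 for knockdown morphine over scramble morphine (SE 0.10), 0.11 for scramble morphine over scramble saline (SE 0.10) and 0.17 for knockdown morphine over scramble saline (SE 0.10; edgeR unadjusted p = 0.0910, adjusted p = 0.614).

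Set against Meg3 in the same library, Rian separated knockdown morphine from scramble morphine. The count of Rian was 9.36, 10.9, 8.67 and 10.4% of that of Meg3 in knockdown morphine, 11.3, 11.97, 11.3 and 11.1% in scramble morphine and 11.4, 10.1, 8.95 and 11.3% in scramble saline. Every knockdown library lay below every scramble morphine library, while the scramble saline libraries, at 8.95 to 11.4%, overlapped both. How often the ratios of other gene pairs separate these groups was not computed. The share at the ribosomal RNA locus also separated knockdown morphine from scramble morphine, at 4.57 to 9.38% against 2.38 to 3.04%, and its part in the ratio was not tested. The difference of knockdown morphine minus scramble morphine was -0.22 on the log2 scale, a fold of 0.856; the two-sided exact permutation test gave p = 0.0286, the smallest that 4 against 4 allows, and 0.343 after adjustment over the 12 ratio tests, so it did not pass the correction. Leaving out each library in turn gave -0.27 to -0.17. Scramble morphine minus scramble saline was 0.14 (exact p = 0.229), and knockdown morphine minus scramble saline was -0.08 (exact p = 0.429). The ratio of Mirg to Meg3 differed by 0.00 between knockdown morphine and scramble morphine (exact p = 1), by 0.20 between scramble morphine and scramble saline (exact p = 0.0571) and by 0.21 between knockdown morphine and scramble saline (exact p = 0.200), and each of these had overlapping groups.

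**Figure D4:**
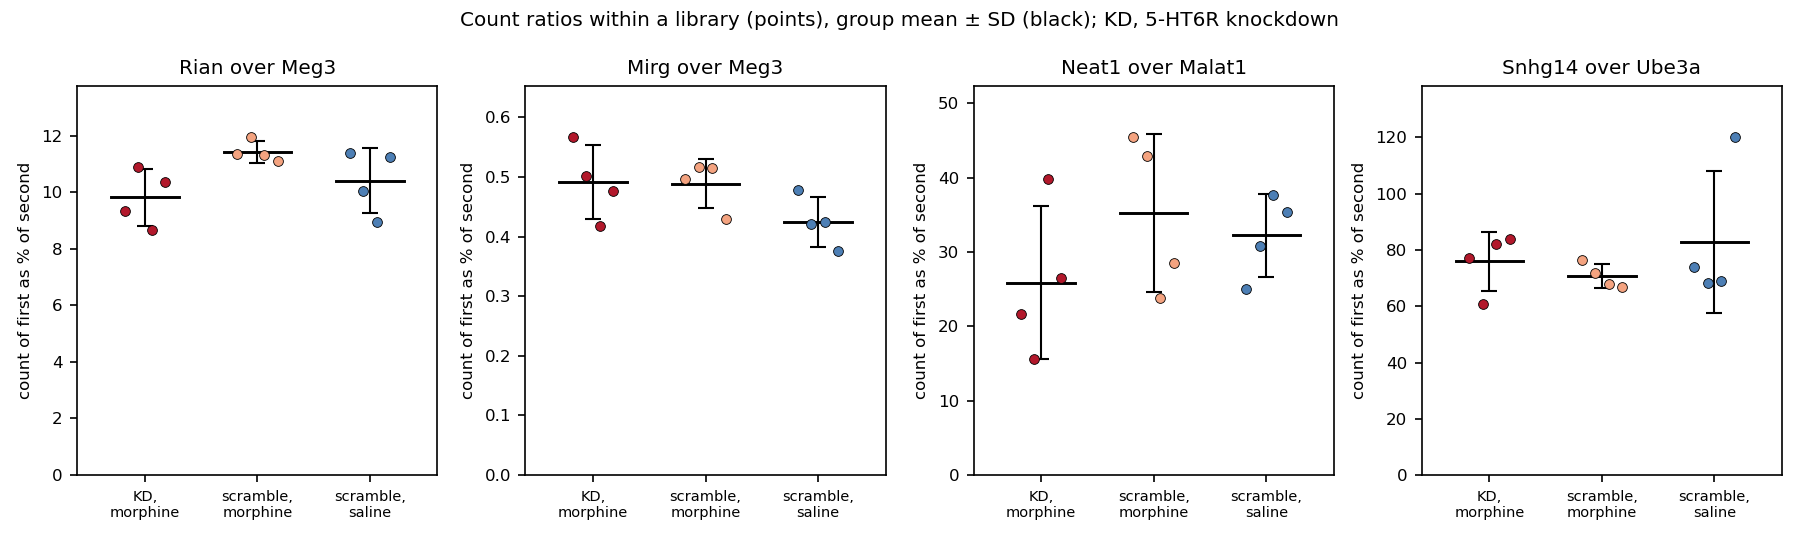
Count of 1 RNA as a percent of another in the same library (points), with group mean and SD in black, for Rian over Meg3, Mirg over Meg3, Neat1 over Malat1 and Snhg14 over Ube3a. The 4 knockdown morphine points of Rian over Meg3 lie at 8.67 to 10.9%, below the 4 scramble morphine points at 11.1 to 11.97%, and 1 scramble saline point of Snhg14 over Ube3a lies at 120.3%.

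Of the 9 listed genes of the Dlk1-Dio3 region and its flanks (Dlk1, Meg3, Rtl1, Rian, Mirg, Dio3, Begain, Wdr25 and Dync1h1), 0 were called in any comparison. In knockdown morphine against scramble morphine 4 log2 fold changes lay above 0 and 5 lay below, and their median was -0.065. The smallest unadjusted p belonged to Dync1h1, the dynein heavy chain gene that flanks the region, with 0.17 (SE 0.07, edgeR adjusted p = 0.379). Dio3, the enzyme that inactivates thyroid hormone, had -0.54 (SE 0.43, adjusted p = 0.653) at a level near 1 CPM.

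Miat had 794, 821, 945 and 893 CPM in knockdown morphine, 835, 802, 821 and 874 CPM in scramble morphine and 819, 939, 895 and 803 CPM in scramble saline. These ranges overlapped almost fully. Its log2 fold change was 0.05 for knockdown morphine over scramble morphine (SE 0.07, edgeR adjusted p = 0.812) and -0.05 for scramble morphine over scramble saline (SE 0.07). Knockdown morphine over scramble saline gave 0.00 (SE 0.07).

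Snhg11, a snoRNA host gene of neurons with 2 annotated snoRNA genes inside it, had 1872, 2076, 2059 and 2292 CPM in knockdown morphine, 2087, 2053, 2109 and 2134 CPM in scramble morphine and 1999.9, 2267, 1993 and 1952 CPM in scramble saline. The scramble morphine libraries lay inside the range of the knockdown libraries. The log2 fold change was -0.01 for knockdown morphine over scramble morphine (SE 0.07, edgeR adjusted p = 0.960), 0.03 for scramble morphine over scramble saline (SE 0.07) and 0.02 for knockdown morphine over scramble saline (SE 0.07).

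Snhg14, the antisense transcript of the Prader-Willi and Angelman region, holds 208 annotated snoRNA genes and had 79.8, 63.1, 70.8 and 85.4 CPM in knockdown morphine, 73.9, 71.4, 71.7 and 71.7 CPM in scramble morphine and 77.7, 74.6, 67.2 and 92.1 CPM in scramble saline. The 4 scramble morphine values lay inside the ranges of both other groups. The log2 fold change was 0.05 for knockdown morphine over scramble morphine (SE 0.10, edgeR adjusted p = 0.876), -0.11 for scramble morphine over scramble saline (SE 0.10) and -0.06 for knockdown morphine over scramble saline (SE 0.10).

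Ube3a, a ubiquitin ligase, overlaps the 3′ part of Snhg14 on the opposite strand over 3613 bases (chr7:59307924-59311536). The library kit marks strand, but whether the counting used it is not given in the sources used here, so reads in this overlap may have been counted for either gene. The count of Snhg14 was 77.0, 60.6, 82.0 and 84.0% of that of Ube3a in knockdown morphine, 76.5, 71.8, 67.8 and 67.0% in scramble morphine and 73.9, 68.2, 69.0 and 120.3% in scramble saline. Scramble saline replicate 5 stood apart, with the highest Snhg14 (92.1 CPM) and the lowest Ube3a (76.5 CPM) of all 12 libraries. The log2 difference was 0.09 for knockdown morphine minus scramble morphine, -0.19 for scramble morphine minus scramble saline and -0.09 for knockdown morphine minus scramble saline (exact permutation p = 0.457, 0.543 and 0.743, adjusted 0.686, 0.724 and 0.810 over the 12 tests).

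Of the 8 tested genes of the Snhg14 region (9 listed), 0 were called in any comparison. Atp10a, a phospholipid flippase next to Ube3a, had the smallest unadjusted p, with a mean of 23.2 CPM in knockdown morphine, 18.5 CPM in scramble morphine and 16.1 CPM in scramble saline. Its log2 fold change was 0.33 for knockdown morphine over scramble morphine (SE 0.14, edgeR adjusted p = 0.373) and 0.53 for knockdown morphine over scramble saline (SE 0.14, adjusted p = 0.309). Snrpn, the spliceosome protein gene at the other end of the region, had 0.10 (SE 0.08) and 0.11 (SE 0.08) in these comparisons.

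Gas5, named for its accumulation in growth arrest and known as an RNA decoy of the glucocorticoid receptor, holds 10 annotated snoRNA genes. It had 61.94, 62.8, 69.1 and 65.1 CPM in knockdown morphine, 61.93, 52.1, 57.1 and 58.9 CPM in scramble morphine and 61.9, 57.0, 74.5 and 55.9 CPM in scramble saline. All 4 knockdown libraries lay above all 4 scramble morphine libraries, the nearest pair by 61.94 against 61.93 CPM, and both overlapped scramble saline, whose replicate 4 was the highest of all. Gas5 was the 1 member of 9 with groups wholly apart in that direction, where 2.59% of all tested genes were, and 0 of 9 lay wholly below, where 3.26% of all tested genes did. In scramble morphine against scramble saline 0 of 9 members were wholly above or below, where 1.55% of all tested genes lay above and 1.77% below, and in knockdown morphine against scramble saline likewise 0 of 9, where 2.18% lay above and 2.16% below. Knockdown morphine over scramble morphine gave a log2 fold change of 0.17, a fold of 1.13 (SE 0.09, edgeR unadjusted p = 0.0675, adjusted p = 0.446). With the ribosomal RNA share as a covariate it was 0.37 (SE 0.13, adjusted p = 0.941), and with libraries scaled by their totals alone it was 0.10. The share did not overlap between these groups, at 4.57 to 9.38% against 2.38 to 3.04%. The covariate fit therefore rests on the slope within groups and cannot separate the share from the groups. Scramble morphine over scramble saline gave -0.12 (SE 0.09), or -0.022 without scramble saline replicate 4, and knockdown morphine over scramble saline 0.05 (SE 0.09).

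Gas5 and Meg3 are the members whose RefSeq promoter windows hold the full cAMP response element TGACGTCA, the site of CREB family factors, shown because 5-HT6R is known to raise cAMP. The element reads the same on both strands and occurred in 588 of 32851 windows of 300 bases (1.79%); 8 of the 9 members had at least 1 window in the table and Neat1 had none. In Gas5 (GRCm38.p6 chr1:161034916-161035215, plus strand, the second of its 2 starts in the table) it begins at -46 from the start, and in Meg3 (chr12:109540746-109541045, plus strand) at -57. A match of letters is not evidence of binding, and neither gene was called in any comparison. The capitals mark the element.
Gas5: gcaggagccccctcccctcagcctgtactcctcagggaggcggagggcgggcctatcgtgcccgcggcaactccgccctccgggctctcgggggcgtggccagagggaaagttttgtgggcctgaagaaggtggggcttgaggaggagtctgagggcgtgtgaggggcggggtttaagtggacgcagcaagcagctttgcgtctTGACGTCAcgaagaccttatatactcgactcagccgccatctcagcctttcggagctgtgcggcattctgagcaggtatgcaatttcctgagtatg
Meg3: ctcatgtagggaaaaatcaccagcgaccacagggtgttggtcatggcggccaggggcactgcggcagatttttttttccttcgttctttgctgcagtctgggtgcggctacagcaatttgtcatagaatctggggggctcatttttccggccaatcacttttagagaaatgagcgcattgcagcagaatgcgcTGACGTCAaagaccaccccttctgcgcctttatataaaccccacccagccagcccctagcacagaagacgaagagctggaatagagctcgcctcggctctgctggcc

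Of 16 tested snoRNA host genes, the 3 members included, 0 were called. Their median log2 fold change was 0.10 in knockdown morphine against scramble morphine, -0.11 in scramble morphine against scramble saline and 0.05 in knockdown morphine against scramble saline; the first 2 share the scramble morphine libraries. Snhg8 had the smallest unadjusted p, with 9.12 CPM in knockdown morphine, 6.64 CPM in scramble morphine and 8.68 CPM in scramble saline. Its log2 fold change was 0.46 for knockdown morphine over scramble morphine (SE 0.13, edgeR adjusted p = 0.275) and -0.39 for scramble morphine over scramble saline (SE 0.13, adjusted p = 0.999).

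The protein partners of the nuclear RNAs were also uncalled. Of 18 paraspeckle protein genes, 0 were called in any comparison, and in knockdown morphine against scramble morphine 6 lay above 0 and 12 below, with a median of -0.03. Pspc1, a core paraspeckle protein, had -0.21 (SE 0.08, edgeR adjusted p = 0.348) and Smarca4, a chromatin remodeller, 0.26 (SE 0.11, adjusted p = 0.380) in that comparison. Of 21 nuclear speckle and splicing genes, likewise 0 were called, with a median of 0.02. Of these, Srrm1 and Srrm2 had the smallest unadjusted p in knockdown morphine against scramble morphine, with 0.18 each (SE 0.08 each, edgeR adjusted p = 0.373 and 0.388).

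Among 22 other tested long noncoding RNAs of brain, 0 were called in any comparison. Kcnq1ot1, the imprinted antisense RNA of Kcnq1, had the smallest unadjusted p in knockdown morphine against scramble morphine, with a mean of 37.4 CPM in knockdown morphine and 29.4 CPM in scramble morphine and a log2 fold change of 0.34 (SE 0.09, edgeR adjusted p = 0.264). Lncpint, a long noncoding RNA of low level, had the next smallest p, with 2.50 CPM in knockdown morphine and 1.41 CPM in scramble morphine and 0.82 (SE 0.30, adjusted p = 0.332). Mir124a-1hg, a host of the neuronal microRNA miR-124, averaged 180.5 CPM in knockdown morphine and 258 CPM in scramble morphine, with -0.51 (SE 0.20, adjusted p = 0.361). Sox2ot, which overlaps the stem cell gene Sox2, had 14.004 CPM in knockdown morphine and 19.8 CPM in scramble morphine, with -0.50 (SE 0.22, adjusted p = 0.388).

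The members differed in how closely libraries of a group matched. The CV was smallest in scramble morphine for 7 of the 9, the exceptions being Neat1, smallest in scramble saline, and Gas5, smallest in knockdown morphine. The CV of Rian was 10.7% in knockdown morphine, 1.64% in scramble morphine and 8.83% in scramble saline. For Snhg11 it was 8.27%, 1.65% and 7.03% in the same order, and for Snhg14 13.2%, 1.59% and 13.4%. The same tendency held across the data: of the 7322 genes at least as abundant as Mirg, 54.1% had their smallest CV in scramble morphine, and the median CV was 9.36% in knockdown morphine, 5.48% in scramble morphine and 6.49% in scramble saline. No test of the difference in spread was made.

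Across the 12 libraries, 45 relations were computed, 36 between pairs of members and 9 between a member and the share at the ribosomal RNA locus. Meg3 and Miat had the highest correlation of log2 CPM (Pearson r = 0.854, permutation p = 4.2e-04, 0.0189 adjusted over the 45; Spearman rho = 0.769, adjusted 0.106). It was 0.790 without the 2 libraries farthest from the median of Meg3 and 0.854 within groups. Malat1 and Snhg14 followed (r = 0.771, adjusted permutation p = 0.0535; rho = 0.860, adjusted 0.0297), with 0.792 without the 2 farthest libraries and 0.783 within groups. Each of these relations passed in 1 of the 2 measures. Both genes of a pair share the scaling of their library. How often other gene pairs reach such correlations was not computed. Within groups, the 3 genes nearest to Meg3 among those ranked below had r of 0.876 to 0.897, and those nearest to Miat 0.886 to 0.913. The share at the ribosomal RNA locus had r within groups of -0.597 with Meg3, -0.785 with Miat, 0.418 with Malat1 and 0.288 with Snhg14. Its part in these relations was not tested.

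**Figure D5:**
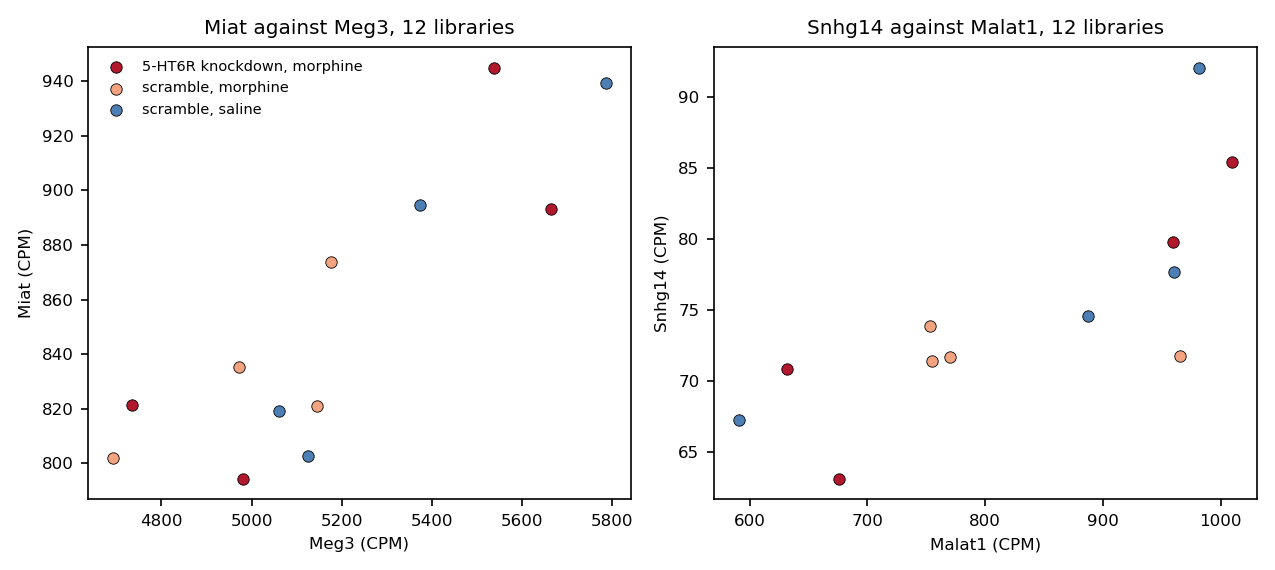
Left, Miat against Meg3, and right, Snhg14 against Malat1, both in CPM, with 1 point for each of the 12 libraries coloured by group in the order knockdown morphine, scramble morphine and scramble saline. Both pairs run upward together (r = 0.854 and 0.771), and points of all 3 groups are mixed along the trend.

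All other pairs of members had lower correlations, pairs of the same locus included. Meg3 and Rian had r = 0.085 (rho = 0.406, and r = 0.259 within groups). Meg3 and Mirg had r = 0.027, Rian and Mirg -0.125, and Malat1 and Neat1 0.345, and none of these pairs passed. Of the 9 relations with the ribosomal RNA share 0 passed. Over all 12 libraries the largest was that of Rian (r = -0.512, permutation p = 0.0828, adjusted 0.414), which was 0.009 without the 2 farthest libraries and -0.163 within groups. Within groups the share had its largest correlations with Miat (-0.785), Snhg11 (-0.610), Meg3 (-0.597) and Gas5 (-0.550). Over all 12 libraries those were -0.271, -0.438, -0.103 and 0.134.

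As a description, the genes whose levels followed each member most closely were ranked by Pearson correlation over the 12 libraries after each group mean was subtracted. The ranking covered 11638 genes with a mean of at least 5 CPM. Genes without a symbol or with the symbol of a predicted gene model were left out of it. Rian was followed by Etnk1 (r = 0.987), Dmxl2 (0.987) and Uhmk1 (0.985). For Neat1 the nearest were Megf10 (0.967), Pfkfb2 (0.966) and Ndrg1 (0.963). Snhg14 had Apcdd1 (0.953), Mirg had Dus2 (0.945) and Malat1 had Prrx1 (0.938) as nearest gene. Snhg11 had Trabd2b (0.924), Gas5 had Phka2 (0.917), Miat had Tspoap1 (0.913) and Meg3 had Klhl20 (0.897). These are the highest of 11638 values for each member and were not tested.

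Markers of other cell types were also compared, since a bulk level depends on the cells present. The 12 oligodendrocyte markers summed to 1278 to 2171 CPM in knockdown morphine, 1964 to 2685 in scramble morphine and 1853 to 2431 in scramble saline, and all 12 had a log2 fold change below 0 in knockdown morphine against scramble morphine, with a median of -0.32. The 12 pericyte and fibroblast markers summed to 439 to 602 CPM in knockdown morphine, 339 to 477 in scramble morphine and 320.0 to 447 in scramble saline. All 12 of these had a log2 fold change above 0 in knockdown morphine against scramble morphine, with a median of 0.35 and the lowest at 0.0072 under TMM scaling, and the median was 0.75 against scramble saline. Of 11 endothelium markers 10 lay above 0 in knockdown morphine against scramble morphine, with a median of 0.23. The 12 astrocyte markers had a median of -0.10 and the 12 microglia markers of -0.21 in knockdown morphine against scramble morphine. In scramble morphine against scramble saline, the 12 astrocyte markers all lay above 0, with a median of 0.19, and the 5 blood markers all lay below 0, with a median of -0.73. The sums of both lists overlapped between these groups. Blood markers summed to 118 to 187 CPM in scramble morphine and 96.9 to 415 in scramble saline, and astrocyte markers to 4689 to 5497 and 3445 to 5491. In all these lists 0 markers were called in edgeR's test and all were detected. In knockdown morphine against scramble morphine, 6 oligodendrocyte markers (all lower) and 3 pericyte and fibroblast markers had an unadjusted p under 0.05. So did 3 endothelium, 2 microglia and 1 astrocyte markers, against 12% of all tested genes. Against scramble saline these were 3, 9 (all higher), 0, 2 and 2 in the same order, against 9.35%. The part of the markers in the values of Neat1, Rian or Gas5 was not tested.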

How the data were processed

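RNA was extracted with Trizol from 12 mPFC samples, poly(A) RNA was selected on oligo(dT) beads, and strand-marked libraries were sequenced, per the labels' protocols. The authors deposited raw read counts per Ensembl gene; the submitters' processing notes give the build mm10 and, with no roles, edgeR, DESeq2, StringTie 1.3.4d, HISAT2 2.0.4 and cutadapt 1.9, and whether counting used strand is not given in the sources used here. Of 55401 gene IDs, 55141 matched GENCODE M21 symbols; the other 260 took 0.0126 to 0.0275% of counts.

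Counts were filtered (filterByExpr, minimum count 10), scaled by TMM and fitted over all 12 libraries with 1 mean per group in edgeR 4.0.16 (robust quasi-likelihood, R 4.3.3), with Benjamini-Hochberg adjustment over 21958 genes at 0.05; the script was tested on simulated data. The biological CV was 23.2%. CPM are TMM-scaled. Ratios used log2(count + 0.5) and exact permutation tests. Alternatives used DESeq2 1.42.0, limma 3.58.1 and sva 3.50.0. No pair of libraries matched within sampling noise (smallest chi-square per gene 13.4 over 66 pairs). The members and gene lists were chosen with earlier results of these data known. All 9 members are named; of each list, up to 4 genes with the smallest p and a mean of at least 1 CPM could be named, and the 3 nearest genes by correlation. Promoters and microRNAs came from RefSeq (GRCm38.p6).

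Genes annotated inside or across the members (208 snoRNA genes in Snhg14, for example) may share reads with them.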

Additional observations from a re-analysis of the deposited data

Results flagged for a closer look

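In 39 groups of 4 libraries (the 9 RNAs and 4 ratios in each group), 5 had a library far from the other 3 by Dixon's test; chance alone flags about 1 in 20 groups. Malat1 in scramble morphine replicate 5 was at 965.8 CPM, with the nearest library at 770.5. Rian in scramble saline replicate 4 was at 480.9 CPM, with the nearest at 576.5. Snhg11 in scramble saline replicate 3 was at 2267 CPM, with the nearest at 1999.9. Snhg14 in scramble morphine replicate 1 was at 73.9 CPM, with the nearest at 71.7, a gap that stands out only because the other 3 lay within 71.4 to 71.7. The ratio of Snhg14 to Ube3a in scramble saline replicate 5 was 1.203, with the nearest at 0.739. These libraries were kept in every value above unless stated.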

How the results depend on the processing

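All 27 member fold changes (9 RNAs in 3 comparisons) stayed above an adjusted p of 0.05 under each of 25 alternatives, 675 values in all, and the smallest was 0.0910 (Rian without knockdown replicate 5). The sign changed in 53 of them, in 14 results whose own log2 fold change was at most 0.076 in size; the cause was not tested.

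For knockdown morphine against scramble morphine, Malat1 turned to -0.048 with library totals only, -0.0010 with no filter, -0.068 with voom, -0.078 with the replicate block and -0.30 with the ribosomal RNA share as a covariate. With totals, Miat was -0.013 and Snhg14 -0.011; with the covariate, Snhg14 was -0.069, Mirg -0.017 and Snhg11 0.14. For scramble morphine against scramble saline, Neat1 was -0.18 with the replicate block, -0.025 with the covariate and -0.032 without scramble saline replicate 4 and knockdown replicate 3, a setting that put Rian at -0.024; with the covariate Malat1 was 0.088 and Snhg11 -0.048. For knockdown morphine against scramble saline, Miat was 0.0013 with RLE, 0.011 with upper quartile, 0.0029 with TMM on protein-coding genes, 0.0033 with a minimum of 1 CPM, 0.0013 with DESeq2, 0.0066 with voom, 0.018 with the replicate block, 0.10 with the covariate and 0.030 with 1 surrogate variable. There, Snhg11 was -0.029 with totals and -0.026 with voom, and Meg3 0.048 with the covariate. Paired by replicate number, the block turned the Neat1 to Malat1 ratio of scramble morphine minus scramble saline to -0.16. Moves of over 1.5 times without a change of sign also occurred. With the covariate, for knockdown morphine against scramble morphine, Gas5 was 0.37, Meg3 0.22, Miat 0.26 and Rian -0.096, against 0.17, 0.066, 0.052 and -0.16 without it. The share did not overlap between those groups, so that fit cannot separate it from them. For knockdown morphine against scramble saline, Neat1 was -0.62 with the replicate block and -0.22 with the surrogate variable.

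Leaving out each library in turn gave these ranges. In knockdown morphine against scramble morphine: Neat1 -0.60 to -0.22, Malat1 -0.11 to 0.12, Snhg11 -0.071 to 0.027, Snhg14 -0.023 to 0.12 and Mirg over Meg3 -0.071 to 0.077. In scramble morphine against scramble saline: Neat1 -0.056 to 0.21, Rian -0.023 to 0.068, Neat1 over Malat1 -0.050 to 0.26 and Snhg14 over Ube3a -0.27 to 0.0070. In knockdown morphine against scramble saline: Neat1 -0.53 to -0.16, Malat1 -0.20 to 0.045, Meg3 -0.074 to 0.015, Miat -0.046 to 0.040, Snhg11 -0.040 to 0.065, Snhg14 -0.13 to 0.031 and Snhg14 over Ube3a -0.17 to 0.099.

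Genes called among all tested, for knockdown morphine against scramble morphine, numbered 0, and 2 with no filter, 164 with DESeq2, 2 with the replicate block, 5 without both named libraries, and 0 to 375 with each library left out (375 without knockdown replicate 5). For scramble morphine against scramble saline the count was 0, and 4 with DESeq2, 1 with the compared groups alone and 1 with the replicate block. For knockdown morphine against scramble saline it was 3, and 0 with totals, 5 with no filter, 147 with DESeq2, 0 with voom, 5 with the compared groups alone, 0 with the replicate block, 0 with the covariate, 1 with the surrogate variable, 0 without both named libraries and 0 to 55 with each library left out. Same-numbered libraries correlated at -0.059 to 0.22 in their deviations from the group means. Libraries of different number were not compared in this way, so these values cannot decide whether the numbers pair the samples.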
